A study of Mus musculus with 8 samples.

Results

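The pentose phosphate pathway and cytosolic isocitrate dehydrogenase were examined as a set of 7 genes, G6pdx, Pgls, Pgd, Rpia, Tkt, Taldo1 and Idh1, listed by symbol for their known roles. Of these, 6 had a probe set annotated to their symbol alone, among 18194 such genes on the array, and G6pdx was not analysed here because no probe set carried its symbol in the annotation used. Gene expression was measured with microarrays in 8 samples of 3T3-L1 cells, an established line of mouse fibroblasts that can be turned into fat cells in the dish. The samples came from 3 models of insulin resistance, in which cells were exposed to tumour necrosis factor (TNF, 3 arrays), an inflammatory cytokine, to dexamethasone (Dex, 3 arrays), a synthetic glucocorticoid, or to chronic insulin (CI, 2 arrays). All 8 samples had received the antioxidant MnTBAP for the last 6 hours, untreated cells were not among them, and the labels give neither doses nor the length of the 3 treatments. A value is therefore high or low only against another model under the antioxidant, and no distance from untreated cells can be given. The labels do not say that arrays of a model came from separate cultures, so the p-values below measure only the spread between these arrays, which may be technical.

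The oxidative branch of the pathway turns glucose 6-phosphate into a pentose phosphate and reduces NADP to NADPH at the steps of G6pdx and Pgd, with the lactonase Pgls acting between them. The non-oxidative branch, with Rpia, Tkt and Taldo1, interconverts sugar phosphates and links the pathway back to glycolysis or to ribose for nucleotides. Idh1 makes NADPH in the cytosol from isocitrate. In fat cells NADPH feeds fatty acid synthesis, and in all cells it keeps glutathione and thioredoxin reduced, so these enzymes sit between lipid storage and the oxidant defence that the study is about.

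Results are given as log2 intensity, and a difference is the mean log2 intensity of the first model minus that of the second, with the standard error (SE) of a fit across all genes. The words rose, fell and called are kept for genes that met both an adjusted p below 0.05 and a log2 difference of more than 0.5 in size (limma with Benjamini-Hochberg adjustment over 18194 genes). Levels are compared only within a gene, since a probe set's brightness depends on its own sequence. Intensities of the arrays ran from 6.14 to 24273.6 with array medians of 124.7 to 130.97, and no array of a model correlated below 0.9958 with another of the same model. The response markers followed the labels. Saa3, an acute phase gene, averaged 14.11 in TNF, 8.92 in Dex and 8.93 in CI, and Ccl2 and Lcn2 also rose in TNF against CI by 1.52 ± 0.23 and 2.17 ± 0.26. The glucocorticoid-induced genes Fkbp5 and Tsc22d3 rose in Dex against CI by 2.96 ± 0.08 and 2.13 ± 0.15. The tissue label reads preadipocytes while the source label reads adipose cells, and the adipocyte hormone gene Adipoq averaged 14.31 to 14.37 in the 3 models. The mean over 11 preadipocyte and fibroblast markers was 11.49 to 11.67 in TNF, 10.67 to 10.75 in Dex and 11.15 to 11.18 in CI. Of these markers 4 rose in TNF and 4 fell in Dex against CI, where 3.00% of all genes rose in TNF and 5.67% fell in Dex. Between TNF and Dex 8 of the 11 were called higher in TNF and 0 lower (median difference 0.83), where 4.14% of all genes were higher. The mean over 9 adipocyte markers was 13.25 to 13.29 in TNF, 13.53 to 13.63 in Dex and 13.59 in CI, and that over 11 macrophage and leukocyte markers 7.24 to 7.32 in TNF, 7.14 to 7.18 in Dex and 7.03 to 7.07 in CI. Of the adipocyte markers 3 fell in TNF against CI, Retn (-0.95 ± 0.09), Cebpa (-0.64 ± 0.10) and Pparg (-0.52 ± 0.08), where 5.23% of all genes fell. In Dex 1 rose, Pnpla2 (0.94 ± 0.08), and 1 fell, Pparg (-0.61 ± 0.08), against CI, where 3.33% of all genes rose and 5.67% fell. Between TNF and Dex 2 were called lower in TNF and 0 higher, where 3.16% of all genes were lower. Of the macrophage and leukocyte markers 2 rose in TNF, Lyz2 (0.55 ± 0.07) and Cd14 (1.44 ± 0.13), and 1 in Dex, Cd14 (0.98 ± 0.13), against CI. Of all genes 3.00% rose in TNF and 3.33% in Dex. Between TNF and Dex 1 of these markers was called higher in TNF and 0 lower, where 4.14% of all genes were higher. The pan-leukocyte gene Ptprc averaged 4.66 in TNF, 4.63 in Dex and 4.60 in CI, Csf1r 8.90 in TNF, 8.68 in Dex and 8.50 in CI, and Lyz2 11.04 in TNF, 10.09 in Dex and 10.49 in CI. In such bulk samples fewer cells of a type and less RNA per cell cannot be told apart, and the part of these markers in the results below was not tested.

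The promoters of the 3 genes that carried the results are shown first, because Taldo1 and Pgd fell in TNF while Rpia fell in Dex. The sequences are those 250 bases before the annotated transcription start in RefSeq, build GRCm38.p6, read 5′ to 3′ on the strand of the gene, with GGGCGG (GC box), CCAAT and AGAACA (glucocorticoid response element half-site) in capitals on either strand. Taldo1 lies on the plus strand of chromosome 7 (141392160 to 141402976), with the stretch shown at chr7:141391910-141392159. Pgd lies on the minus strand of chromosome 4 (149149991 to 149166705), with the stretch shown at chr4:149166706-149166955. Rpia lies on the minus strand of chromosome 6 (70765720 to 70792175), with the stretch shown at chr6:70792176-70792425. The other genes lie on chromosomes 8 (Pgls), 14 (Tkt), 1 (Idh1) and X (G6pdx).
Taldo1: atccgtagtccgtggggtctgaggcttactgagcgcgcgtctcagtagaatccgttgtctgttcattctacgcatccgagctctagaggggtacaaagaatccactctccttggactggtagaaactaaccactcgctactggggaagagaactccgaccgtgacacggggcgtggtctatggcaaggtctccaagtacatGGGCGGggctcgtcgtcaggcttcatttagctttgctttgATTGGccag
Pgd: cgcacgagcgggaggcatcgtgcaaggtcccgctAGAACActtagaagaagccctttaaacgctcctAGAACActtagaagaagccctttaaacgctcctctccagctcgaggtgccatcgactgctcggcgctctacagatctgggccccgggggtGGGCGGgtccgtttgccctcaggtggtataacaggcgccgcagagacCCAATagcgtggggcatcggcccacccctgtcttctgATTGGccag
Rpia: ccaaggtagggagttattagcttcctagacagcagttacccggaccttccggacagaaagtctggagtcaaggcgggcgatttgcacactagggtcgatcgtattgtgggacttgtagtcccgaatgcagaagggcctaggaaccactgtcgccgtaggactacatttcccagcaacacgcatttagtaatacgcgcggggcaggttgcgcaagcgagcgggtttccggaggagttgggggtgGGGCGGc

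The upstream sequences of Taldo1 and Pgd end alike. Their longest shared stretch was TGATTGGCCAG, 11 bases that occupy positions -11 to -1 before the start in both genes and contain an inverted CCAAT. This stretch was taken from the sequences of these same genes after both were called in TNF, so the shares that follow test nothing. Of the 32851 promoter windows of the RefSeq table, 88 (0.268%) hold it on either strand, those of Taldo1 and Pgd among them. An inverted CCAAT at exactly that position occurs in 24 windows (0.0731%), which again include both genes. Rpia has no CCAAT in its window. The half-sites of Pgd at positions -216 and -183 lie in the copies of a repeat of 35 bases, which begin at -218 and -185. All 7 listed genes matched the promoter table, with 9 windows because Pgd and Idh1 have a pair of annotated starts each, and the search covered the 250 bases before and 50 after each start on both strands. GC boxes were found in 8 of the 9 windows, against 35.7% of all windows, and CCAAT in 3 of 9, against 37.4%. The antioxidant response element core TGACNNNGC was found in 2 of 9 windows, those of G6pdx and of the second start of Pgd, against 12.4%. The half-site AGAACA was found in 2 of 9, against 19.0%. The sterol regulatory element TCACNCCAC (1.24% of all windows), the E-box CACGTG (7.15%) and the NF-kB consensus (4.51%) were found in 0 of 9. These are matches of letters in a short window, given as a description, and no binding was measured.

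Taldo1 encodes transaldolase, which moves a dihydroxyacetone unit between sugar phosphates. It was lowest in TNF, with log2 intensities of 11.41, 11.86 and 11.72, against 12.08, 12.08 and 12.32 in Dex and 12.48 and 12.46 in CI. The 3 models did not overlap. TNF replicate 1 was the lowest array, and Dex replicate 3 lay nearest to CI. Taldo1 was 1.75-fold lower in TNF than in CI (-0.81 ± 0.12, limma adjusted p = 0.000806), and it fell in each of the 20 alternative analyses. In Dex it stood 0.31 ± 0.12 below CI and did not pass (adjusted p = 0.096). Between TNF and Dex the difference was -0.49 ± 0.11 (adjusted p = 0.00734), just inside the 0.5 threshold. It passed that threshold without TNF replicate 2 (-0.59), without TNF replicate 3 (-0.52), and without Dex replicate 1 or 2 (-0.53 each).

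Pgd encodes 6-phosphogluconate dehydrogenase, the later of the oxidative steps that yield NADPH. Its main probe set read 11.66, 12.08 and 12.07 in TNF, 12.18, 12.24 and 12.66 in Dex and 12.43 and 12.53 in CI. All TNF arrays lay below all others, again with TNF replicate 1 lowest, while the Dex arrays spanned the CI values. Pgd fell in TNF against CI by 0.54 ± 0.15 (1.46-fold, limma adjusted p = 0.0255), close to the threshold. Without TNF replicate 1 the difference was -0.40 at an adjusted p of 0.0559, and leaving out CI replicate 1 (-0.59, adjusted p = 0.0819) or CI replicate 2 (-0.50, adjusted p = 0.155) also ended the call. Dex and CI differed by -0.12 ± 0.15 (adjusted p = 0.648), with a 95% interval of -0.45 to 0.22. For TNF against Dex the difference was -0.43 ± 0.14 (adjusted p = 0.0478), short of the fold threshold. It was called without Dex replicate 1 (-0.51, adjusted p = 0.0414).

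The other measured enzyme of the oxidative branch, Pgls, hydrolyses 6-phosphogluconolactone. Its log2 intensities were 11.24, 11.57 and 11.52 in TNF, 11.75, 11.78 and 11.96 in Dex and 11.57 and 11.69 in CI. The models were ordered TNF, CI and Dex from low to high, with TNF and CI nearly touching. Pgls did not pass in any comparison. Its difference from CI was -0.19 ± 0.11 in TNF (limma adjusted p = 0.241; -0.09 without TNF replicate 1) and 0.20 ± 0.11 in Dex (adjusted p = 0.223), and TNF minus Dex came to -0.39 ± 0.10 (adjusted p = 0.0137). It was the 1 measured member whose mean was higher in Dex than in CI.

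Rpia, the isomerase that makes ribose 5-phosphate, was the 1 measured member called in Dex against CI. It was lowest in Dex, at 10.41, 10.40 and 10.36, against 11.01, 10.94 and 11.00 in TNF and 11.27 and 11.22 in CI. The arrays of each model lay close together, with an SD of 0.03 to 0.04, and the models did not overlap. Rpia fell in Dex against CI by 0.85 ± 0.07 (1.80-fold, limma adjusted p = 6.46e-06). It was higher in TNF than in Dex by 0.59 ± 0.06 (1.51-fold, adjusted p = 4.23e-05). Both calls were made in all 20 alternative analyses. TNF stood 0.26 ± 0.07 below CI, at an adjusted p of 0.0197 that did not meet the fold threshold.

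**Figure D1:**
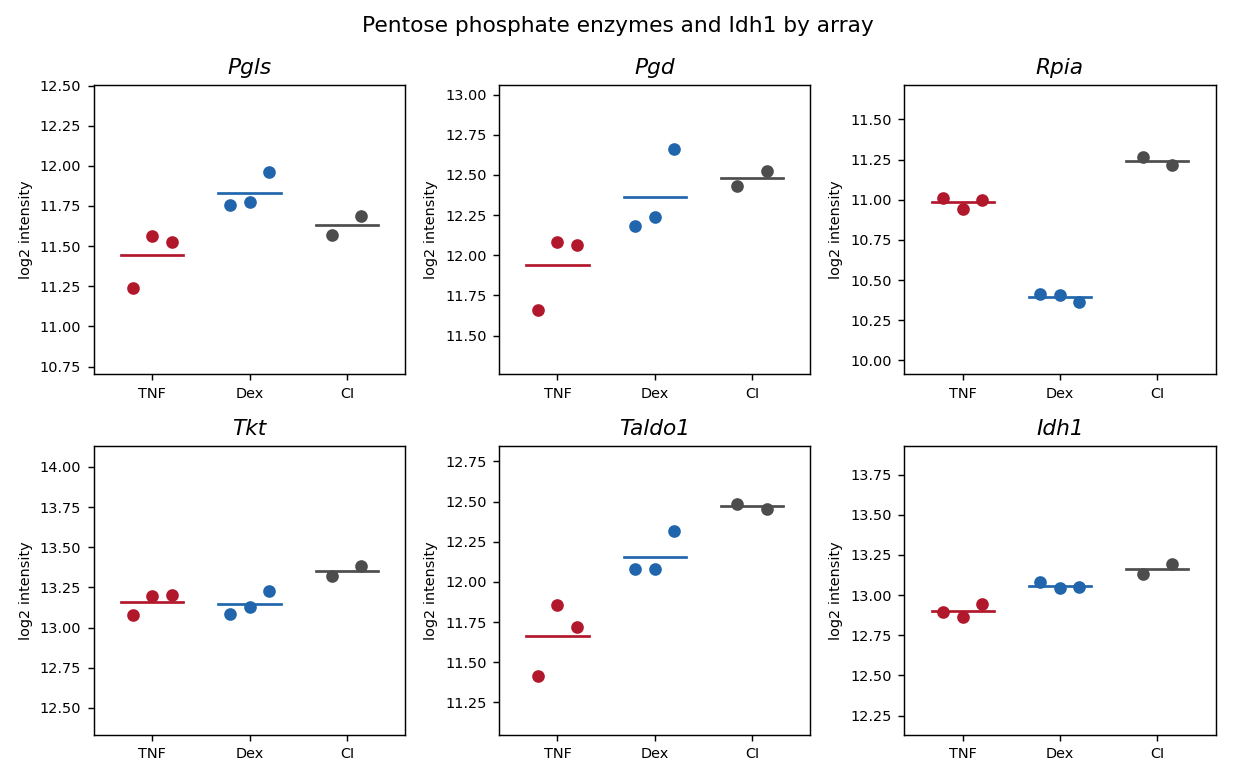
Log2 intensity (vertical axis, 1.8 units in each panel) of the 6 measured genes in the 8 arrays, with TNF left, Dex in the middle and CI right; points are arrays and bars are means. Taldo1 and Pgd averaged lowest in TNF (11.66 and 11.94), and Rpia lowest in Dex (10.39).

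Tkt, which encodes transketolase, the enzyme that moves ketol units in the non-oxidative branch, differed less between models. It read 13.08, 13.20 and 13.21 in TNF, 13.08, 13.13 and 13.23 in Dex and 13.32 and 13.38 in CI. The CI arrays were the highest, and TNF and Dex overlapped. The differences from CI were -0.19 ± 0.08 in TNF and -0.21 ± 0.08 in Dex and did not pass (limma adjusted p = 0.0982 and 0.0816). TNF and Dex differed by 0.01 ± 0.07, with a 95% interval of -0.14 to 0.17, and the sign of this difference changed with the scaling of the arrays.

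Idh1 was ordered like Taldo1 but over a narrower range. Its values were 12.90, 12.86 and 12.94 in TNF, 13.08, 13.04 and 13.05 in Dex and 13.13 and 13.19 in CI. The models did not overlap, although Dex replicate 1 and CI replicate 1 were close. No difference passed. TNF minus CI was -0.26 ± 0.07 (limma adjusted p = 0.0192), Dex minus CI -0.11 ± 0.07 (adjusted p = 0.325) and TNF minus Dex -0.15 ± 0.06 (adjusted p = 0.106). The adjusted p for TNF against CI was under 0.05, but the 95% interval of -0.41 to -0.11 lies within the fold threshold.

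Set side by side, the 6 measured genes gave 2 that fell and 0 that rose in TNF against CI, where 5.23% of all 18194 genes fell. At an unadjusted p under 0.05 in limma, 5 of the 6 were lower and 0 higher. The share of all genes at this unadjusted cut was not computed, here or for the lists below. Such counts therefore have no background beside them. At an adjusted p below 0.05 with no fold threshold, a stricter cut, 2413 of all 18194 genes were lower in TNF than in CI. All 6 lay lower in TNF with no overlap of the arrays, but 53.0% of all genes did not overlap between these models. That share counts both directions, and the share for lower alone was not computed. The median difference was -0.26, against 0.03 over all genes. In Dex against CI, 1 of 6 fell and 0 rose, where 5.67% of all genes fell, and 3 were lower and 0 higher at an unadjusted p under 0.05. There 5 of 6 did not overlap, against 48.0% of all genes, and the median difference was -0.16, against 0.02. In TNF against Dex, 1 of 6 rose and 0 fell, where 4.14% of all genes rose, and 1 was higher and 4 lower at an unadjusted p under 0.05. Here 5 of 6 did not overlap, against 35.9%, and the median was -0.27, against 0.01. The comparisons share arrays, so their values for a gene are not independent of each other. Among the called genes the share that was higher in TNF than in CI was 36.4%, and it moved to 46.7% after quantile normalization of the arrays and to 27.3% with each array centred on its median. TNF replicate 1 was the lowest TNF array, and Dex replicate 3 the highest Dex array, in the same 4 of 6 genes, Pgls, Pgd, Tkt and Taldo1. The beta-actin 3′ minus 5′ difference, a measure of RNA quality, was 0.74, 0.71 and 0.83 in TNF, 0.49, 0.49 and 0.75 in Dex and 0.66 and 0.54 in CI. Apart from Dex replicate 3, every Dex and CI array lay below TNF, so this covariate is partly confounded with the model. The Gapdh 3′ minus 5′ difference was 0.08, 0.12 and 0.14 in TNF, 0.11, 0.07 and 0.08 in Dex and 0.16 and 0.14 in CI, and was not highest in TNF. With the beta-actin difference as a covariate, Taldo1 (-0.62, adjusted p = 0.0194) and Pgd (-0.67, adjusted p = 0.0244) were called lower in TNF than in Dex.

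**Figure D2:**
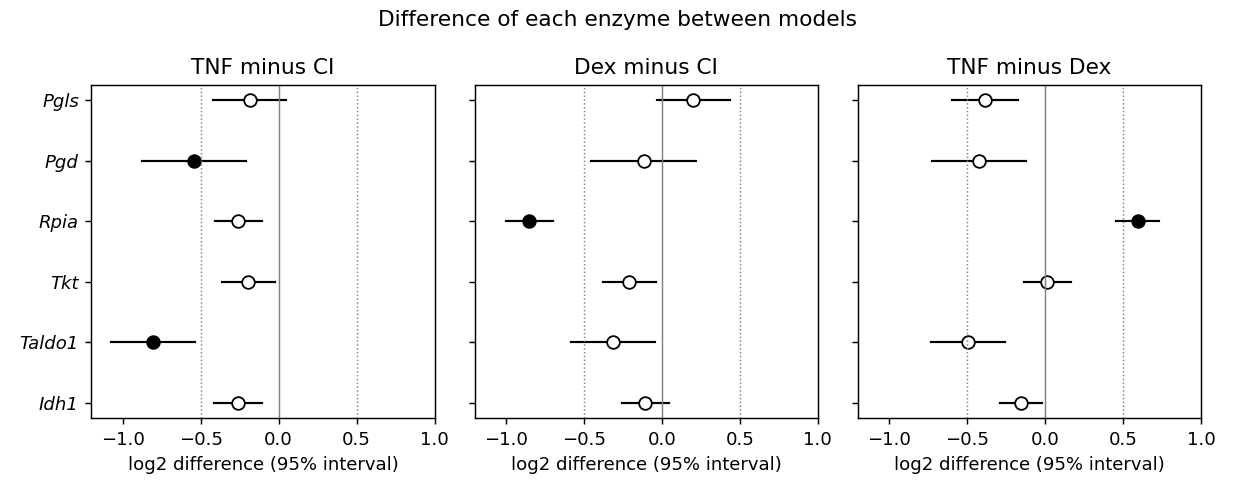
Difference in log2 intensity (horizontal axis) with its 95% interval for the 6 genes in each comparison; filled points were called, open points were not, and dotted lines mark the threshold of 0.5. Rpia is the 1 gene called in Dex minus CI (-0.85) and in TNF minus Dex (0.59).

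The genes with more than 1 probe set gave a check within the array. Pgd had 4 probe sets, all lower in TNF than in CI, with differences of -0.54 for the main one (1436771_x_at) and -0.46, -0.83 and -0.499 for the others. In the limma fit over 45037 probe sets, the main one and 1423706_a_at (-0.83) were called against CI. Not called were 1437380_x_at (-0.46, adjusted p = 0.0571) and 1438627_x_at (-0.499, adjusted p = 0.0252), the latter short of the fold threshold. The probe set 1423706_a_at was also called lower in TNF than in Dex (-0.62 ± 0.13, limma adjusted p = 0.00925). The other Pgd probe sets, including the main one, have names ending in _x_at, with which the maker marks probes that can also bind other transcripts, as does that of the main Tkt probe set. Of the 3 probe sets of Tkt, the brightest gave -0.19 for TNF against CI, 1451015_at gave -0.35 ± 0.09 (adjusted p = 0.019) and the dimmest, at a mean of 7.61, gave -0.16. None of the 3 was called in any comparison. For TNF against Dex the Tkt probe sets did not share a sign, with 0.01, -0.12 and 0.26. The other probe set of Idh1 stood at -0.09 for TNF against CI, against -0.26 for the main one, and was not called either. Pgls, Rpia and Taldo1 have 1 probe set each, so their values rest on it.

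**Figure D3:**
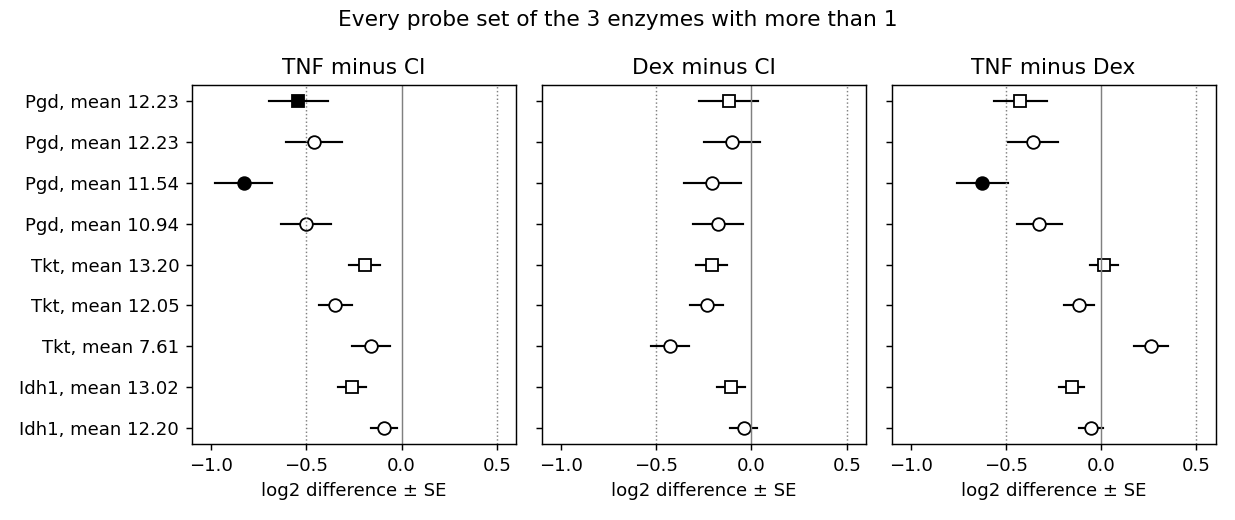
Difference in log2 intensity ± SE (horizontal axis) for each of the 9 probe sets of Pgd, Tkt and Idh1, labelled with the mean log2 intensity over the 8 arrays; squares are the main probe sets, and filled symbols were called. The 4 Pgd probe sets lie between -0.83 and -0.46 in TNF minus CI.

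Other enzymes of pentose and ribose metabolism were read from a list of 11, all measured. In TNF against CI 1 fell and 0 rose, in Dex against CI 2 rose and 2 fell, and in TNF against Dex 2 fell and 0 rose, where 8.22%, 9.00% and 7.30% of all genes were called in either direction. The median difference of the list was -0.05, 0.03 and -0.02 for these comparisons, against 0.03, 0.02 and 0.01 over all genes. At an unadjusted p under 0.05, 2 were higher and 2 lower in TNF than in CI, 2 higher and 4 lower in Dex than in CI, and 5 higher and 4 lower in TNF than in Dex. Rpe, the epimerase that works beside Rpia on ribulose 5-phosphate, was 9.97, 10.26 and 10.00 in TNF, 10.34, 10.32 and 10.56 in Dex and 11.29 and 11.25 in CI. It fell 2.29-fold in TNF (-1.19 ± 0.10, limma adjusted p = 2.12e-05) and 1.83-fold in Dex (-0.87 ± 0.10, adjusted p = 0.000109) against CI, with both CI arrays far above the other 6. Between TNF and Dex it differed by -0.33 ± 0.09 and did not pass. Its mean was lowest in TNF (10.08), while that of Rpia was lowest in Dex.

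Prps1, which turns ribose 5-phosphate into the precursor of nucleotides, followed the order of Rpia. It read 11.20, 11.27 and 11.22 in TNF, 11.00, 10.95 and 10.81 in Dex and 11.59 and 11.58 in CI, and fell in Dex against CI by 0.67 ± 0.08 (limma adjusted p = 9.36e-05). In TNF its difference from CI was -0.35 ± 0.08 and missed the fold threshold. Prps2, which encodes a second form of this enzyme, did not follow that order. Its difference from CI was 0.37 ± 0.07 in TNF and 0.03 ± 0.07 in Dex, and neither was called. H6pd, the glucose 6-phosphate dehydrogenase of the endoplasmic reticulum, went the other way from Prps1 in Dex. It was 10.56, 10.38 and 10.53 in TNF, 11.23, 11.16 and 10.79 in Dex and 10.42 and 10.55 in CI. It rose in Dex against CI by 0.58 ± 0.12 (adjusted p = 0.00517) and TNF minus Dex was -0.57 ± 0.11, with Dex replicate 3 nearest to the other models. The rise did not hold after dropping CI replicate 1 (0.52, adjusted p = 0.0598) or Dex replicate 1 (0.50, adjusted p = 0.0204), and the TNF against Dex call was lost without Dex replicate 1 and with the beta-actin covariate (-0.35). Shpk, which phosphorylates sedoheptulose to feed the non-oxidative branch, rose in Dex against CI by 0.56 ± 0.10, a call lost without CI replicate 1 (0.45), and TNF minus Dex was -0.66 ± 0.09. It averaged 7.73 in TNF, 8.39 in Dex and 7.83 in CI, near the median gene (7.92), where no measure of background was used and sizes are uncertain.

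The list of other enzymes that make NADPH, with the NAD kinases that supply NADP, held 10 genes, all measured. It also holds Me2, a malic enzyme that works mainly with NAD and was not called in any comparison. Against CI, 1 rose and 1 fell in TNF, and 1 rose and 1 fell in Dex, where 8.22% and 9.00% of all genes were called. The gene that fell in both was Me1, the cytosolic malic enzyme. It read 11.33, 11.70 and 11.50 in TNF, 11.65, 11.66 and 11.59 in Dex and 12.66 and 12.59 in CI. The fall was 2.16-fold in TNF (-1.11 ± 0.10, limma adjusted p = 2.55e-05) and 1.98-fold in Dex (-0.99 ± 0.10, adjusted p = 3.26e-05), and TNF and Dex overlapped. Idh2, the mitochondrial counterpart of Idh1, was 10.55, 10.69 and 10.61 in TNF, 11.75, 11.75 and 11.50 in Dex and 10.53 and 10.72 in CI. It rose 2.06-fold in Dex against CI (1.04 ± 0.10, adjusted p = 1.99e-05), by 0.56 when the median of its probe sets was used. TNF minus Dex was -1.05 ± 0.09, and -0.54 with that median. Idh1 in the cytosol stood at -0.11 ± 0.07 in the same comparison of Dex with CI. Nnt, the mitochondrial transhydrogenase, rose in TNF against CI by 0.63 ± 0.10, with 11.03, 10.90 and 11.07 in TNF, 10.76, 10.48 and 10.79 in Dex and 10.39 and 10.35 in CI. With the median of its probe sets the difference was 0.31 and was not called. The median difference of the list was -0.09 in TNF and -0.08 in Dex against CI and -0.07 in TNF against Dex. At an unadjusted p under 0.05, 2 were higher and 4 lower in TNF, and 3 higher and 4 lower in Dex, against CI. In TNF against Dex 1 was higher and 1 lower. The kinase genes Nadk (0.32 ± 0.08 in TNF against CI) and Nadk2 (-0.09 ± 0.08) did not pass.

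**Figure D4:**
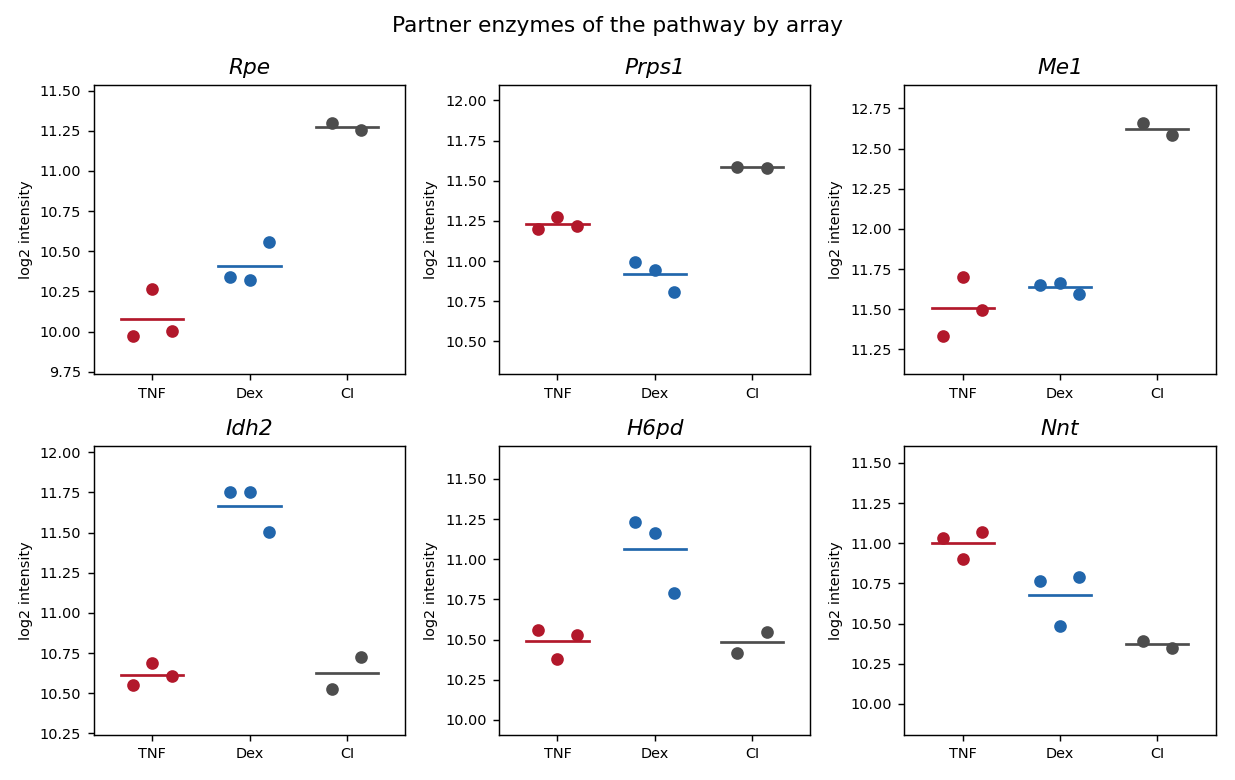
Log2 intensity (vertical axis, 1.8 units in each panel) of 6 partner enzymes in the 8 arrays, with TNF left, Dex in the middle and CI right; points are arrays and bars are means. Rpe and Me1 averaged 11.27 and 12.62 in CI, above both other models, and Idh2 averaged 11.67 in Dex.

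On the side of NADPH use, 14 of 19 listed enzymes were measured, of which 1 rose and 5 fell in TNF and 5 fell in Dex against CI, while 3 were higher in TNF than in Dex. The list includes Cyb5r3, a reductase that works mainly with NADH and was not called in any comparison. Over all genes 3.00% rose and 5.23% fell in TNF, 5.67% fell in Dex and 4.14% were higher in TNF than in Dex. The median difference of the list was -0.19 in TNF and -0.25 in Dex against CI, and 0.10 in TNF against Dex. At an unadjusted p under 0.05, 3 were higher and 6 lower in TNF than in CI, and 3 higher and 8 lower in Dex than in CI. In TNF against Dex 6 were higher and 3 lower. The 4 largest falls in Dex were those of the sterol reductases Tm7sf2 (-1.85 ± 0.15) and Dhcr7 (-1.52 ± 0.14), followed by the ketoacyl-CoA reductase Hsd17b12 (-1.06 ± 0.08) and the carbonyl reductase Cbr3 (-0.68 ± 0.08). In TNF these genes fell by 0.89 ± 0.15 for Tm7sf2, 0.57 ± 0.14 for Dhcr7, 0.75 ± 0.08 for Hsd17b12 and 0.71 ± 0.08 for Cbr3. Fasn, fatty acid synthase (-0.61 ± 0.10 in Dex), and Blvrb, biliverdin reductase B (-0.55 ± 0.12 in TNF, not called after quantile normalization or without CI replicate 2 or TNF replicate 1), complete the falls and were named after their values were seen. The Dhcr7 call in TNF was lost after quantile normalization (-0.49) and without CI replicate 1, CI replicate 2 or TNF replicate 1. Tm7sf2 and Dhcr7 were higher in TNF than in Dex by 0.95 ± 0.13 and 0.94 ± 0.13, and the quinone reductase Nqo1 by 0.61 ± 0.11, a call lost with the beta-actin covariate (0.40). Nqo1 also rose in TNF against CI by 0.56 ± 0.12, and that call did not hold after dropping CI replicate 1 (0.48), with the replicate block (0.48) or with the covariate (0.38). Glutathione reductase Gsr (-0.18 ± 0.09 in TNF and -0.04 ± 0.09 in Dex) and thioredoxin reductase Txnrd1 (0.06 ± 0.09 and 0.14 ± 0.09), which spend NADPH on the redox buffers, did not pass against CI.

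Among 14 measured genes of glucose entry and upper glycolysis, which share sugar phosphates with the pathway, 4 fell in TNF and 3 in Dex against CI and 0 rose, and 3 were higher in TNF than in Dex, where 5.23% and 5.67% of all genes fell and 4.14% were higher. With 1 array left out the counts ran from 2 (without TNF replicate 1) to 5 in TNF and from 2 (without CI replicate 2) to 6 (without Dex replicate 3) in Dex. At an unadjusted p under 0.05 in limma, 1 was higher and 6 lower in TNF, and 0 higher and 10 lower in Dex, against CI. In TNF against Dex 5 were higher and 2 lower. The median difference of the list was -0.08 in TNF and -0.39 in Dex against CI, and 0.05 in TNF against Dex. In Dex, 6 of the 14 fell with array weights, and 6 with the replicate number as a block. Of all 18194 genes, 1061 and 1126 fell in Dex under these settings. The insulin-regulated glucose transporter Slc2a4 fell by 0.63 ± 0.08 in TNF and 0.65 ± 0.08 in Dex, and the phosphoglucomutase Pgm1 by 0.63 ± 0.08 and 0.70 ± 0.08. The Pgm1 calls were lost with the median of its probe sets (-0.10 and -0.25). Aldoa (-0.54 ± 0.09) and Pfkp (-0.52 ± 0.09) fell in TNF, and neither was called without TNF replicate 1. Pfkp was also not called after quantile normalization, with the median of its probe sets or with array weights (-0.45, -0.44 and -0.48). Pfkl fell in Dex (-0.63 ± 0.14), a call lost without CI replicate 2. Of the hexokinases, the entry enzymes to both routes, Hk1 was higher in TNF than in Dex by 0.81 ± 0.13. Hk2 differed by 0.04 ± 0.10 in that comparison and did not pass. Slc2a1 (0.86 ± 0.20) and Pfkl (0.63 ± 0.12) were also higher in TNF than in Dex. The calls for Slc2a1 and Pfkl were lost with the beta-actin covariate, and that for Slc2a1 also without TNF replicate 3 or Dex replicate 2.

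Of 7 measured genes of citrate and isocitrate supply, which bear on the substrate of Idh1, 2 fell in TNF and 1 in Dex against CI, and 1 was higher and 2 lower in TNF than in Dex, against 8.22%, 9.00% and 7.30% of all genes called in these comparisons. The median difference of the list was -0.43 in TNF and -0.07 in Dex against CI, and -0.32 in TNF against Dex. At an unadjusted p under 0.05, 0 were higher and 4 lower in TNF, and 0 higher and 3 lower in Dex, against CI. In TNF against Dex 2 were higher and 4 lower. Acly, which splits citrate in the cytosol, averaged 12.86 in TNF, 11.82 in Dex and 12.97 in CI. It fell in Dex against CI by 1.15 ± 0.14 (limma adjusted p = 0.000101), by 0.62 with the median of its probe sets, and was higher in TNF than in Dex by 1.04 ± 0.12, which was not called with that median (0.41). Idh3a, Idh3b and Idh3g encode subunits of the NAD-dependent isocitrate dehydrogenase. In TNF, Idh3b fell by 0.59 ± 0.08 against CI and by 0.63 ± 0.07 against Dex. Idh3a fell by 0.63 ± 0.10 against CI, a call lost with the median of its probe sets (-0.22), and its difference from Dex was -0.32 ± 0.09, short of the fold threshold. Idh3g fell by 0.57 ± 0.07 against Dex, while its difference from CI, -0.43 ± 0.08, was not called.

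The genes whose pattern over the 8 arrays was most like that of a member were named by Pearson's r, among 4047 or 4048 other genes brighter than the median gene with a range of at least 0.5. For Taldo1 they were Atp5g1 (r = 0.997), Mecr (0.997) and Pde4dip (0.993), and for Pgd they were Rab4a (0.989), Nhp2 (0.981) and Larp1b (0.975). For Rpia they were Lgals9 (0.997), Lgals3bp (0.996) and Gm9706 (0.995). Pgls was nearest to Grhpr (0.988), Uck1 (0.986) and Polr2f (0.985). Tkt was nearest to Taf6l (0.993), Snrpa1 and Psmc1 (0.984 each), and Idh1 to Ncapd3 (0.994), Dbt (0.989) and Thnsl1 (0.983). The 8 arrays form 3 groups, and the highest of so many values is high whatever the genes, so these names are a description.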

How the data were processed

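Total RNA of 8 samples was labelled with biotin and read on Affymetrix mouse arrays that cover the genome. The deposited table holds 1 linear intensity per probe set and sample. Per the study's methods the authors used RMA background correction and normalization in affyPLM, and whether the deposited intensities are those values without the logarithm is not given in the sources used here. Log2 was taken with no pseudocount. Of 45101 probe sets, 34958 had 1 gene symbol in the platform annotation, 932 several and 9211 none. A gene was read from its single-symbol probe set with the highest mean, giving 18194 genes. The 3 models were fitted together with limma 3.58.1 in R 4.3.3 (lmFit and eBayes, two-sided, 5 residual degrees of freedom, Benjamini-Hochberg adjustment over all genes), which was tested on simulated data. The 45037 probe sets other than the 64 controls were also fitted.

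The members and lists were chosen with earlier results of these data known. All members were named, with up to 4 called genes of each list per comparison and the 3 genes most alike to each member. Alternatives covered scaling, probe set choice, a filter, a pseudocount of 16, a replicate block, the samples fitted, eBayes settings, array weights, thresholds, RNA quality and each array left out. Samples were grouped by their titles. Arrays carry no counting depth, and their number sets the precision. Figures were drawn with Python 3.11.15.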

Additional observations from a re-analysis of the deposited data

How the results depend on the processing

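Across 20 alternatives Taldo1 stayed called lower in TNF against CI (-0.92 to -0.68), and Rpia stayed called lower in Dex than in CI (-0.88 to -0.80) and higher in TNF than in Dex (0.56 to 0.63). Not every alternative could have ended these calls. Dropping the fold threshold can only add calls. Leaving out an array of the third model, or taking the median for a gene with 1 probe set, leaves the difference itself unchanged. Of the 2 genes called for TNF against CI, 1 was left, Taldo1, after quantile normalization (Pgd -0.48) and with array weights (Pgd -0.48). With no fold threshold 4 of the 6 measured genes were called, where 4181 of all 18194 genes were. For TNF against Dex the count of 1 became 2 with each array centred on its median, 2 with the median of the probe sets and 3 with the beta-actin covariate. It became 4 with no fold threshold, where 3801 of all 18194 genes were called. With 1 array left out the counts ran from 1 to 2 for TNF against CI and from 1 to 3 for TNF against Dex, and stayed at 1 for Dex against CI. The Tkt difference between TNF and Dex, 0.01, changed sign with median centring (-0.013), the median of the probe sets (-0.12) and the beta-actin covariate (-0.047), and ran from -0.018 to 0.055 with 1 array left out. The cause of these changes was not tested. Whether replicate numbers pair the arrays is not known. Deviations of same-numbered arrays from their model means correlated at -0.09 to 0.33. Pairs with different numbers were not computed, so these values cannot decide it. With the replicate number as a block, 2, 1 and 1 genes were called, in the order TNF against CI, Dex against CI and TNF against Dex. The glycolysis list went to 6 genes for Dex against CI with this block, where 3 were called without it. Of all 18194 genes, 1730 were called in that comparison with the block and 1637 without it. Saturation and background were not measured, and 2 arrays in CI limit both comparisons with it.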
